A study of Mus musculus with 12 samples.

Results

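The genes described here are the replication-dependent histone genes, taken as all symbols that start with Hist1h, Hist2h, Hist3h or Hist4h in the gene lists of the series. These are 67 of 32285 listed genes: 54 in the Hist1 cluster on chromosome 13, 10 in the Hist2 cluster on chromosome 3, 2 Hist3 genes on chromosome 11 and 1 Hist4 gene on chromosome 6. By histone type they comprise 6 genes for linker histone H1, 18 for H2A, 18 for H2B, 12 for H3 and 13 for H4. Cells that copy their DNA must package it at once, and these genes supply most of the histone protein for that step. Their mRNAs are made mainly in S phase, end in a short stem-loop in place of a poly(A) tail, and are bound there by the stem-loop binding protein Slbp. Antibody-secreting cells (ASCs) divide as plasmablasts and stop dividing as plasma cells, so both states can occur in 1 sort.

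The series profiled ASCs of 3 tissues (bone marrow, spleen, thymus) in both sexes of mice by droplet RNA sequencing with 10x Genomics 5′ v1.1 chemistry. All mice carried the Prdm1-eYFP reporter, which marks cells that express the ASC transcription factor Prdm1, on the C57BL/6 background and were 3 months old. Each sort pooled 3 mice and took B220 positive or negative, CD138 high, IgD negative, CD90.2 negative, eYFP positive cells. There was 1 expression library per sex and tissue, which gives 2 libraries per tissue and 3 per sex, with none repeated. Where 2 values are given for a tissue, the female library comes first. Whether 1 pool gave all its tissues is not stated in the labels. The comparisons ask how histone mRNA differs between cells with and without cell cycle transcripts, between tissues and between sexes.

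The filtered lists held 39949 barcodes. Of these, 8715 had at least 1000 unique molecular identifiers (UMIs, single counted RNA molecules) outside the immunoglobulin genes and a leading light-chain V gene that took at least 50% of the light-chain V UMIs. These are called kept cells, and the 17034 equally deep barcodes below 50% are called mixed. Kept cells numbered 1238 and 1665 for bone marrow, 3567 and 1850 for spleen and 107 and 288 for thymus, with median depths of 2035 to 4352 UMIs and summed depths of 264621 to 21287170 UMIs. All 10 ASC markers had UMIs in the kept cells of each library, at 59080 to 111000 CPM, the UMI count scaled to the UMIs outside immunoglobulin genes. Xist, made from the inactive X, lay at 672 to 1630 CPM in female and at 0.646 to 1.68 CPM in male libraries, and the Y-linked gene Ddx3y at 60.2 to 84.1 CPM in male and at most 0.047 CPM in female libraries, as the labels give the sexes. Between 89 and 130 kept cells per bone marrow or spleen library, and 32 of 107 and 59 of 288 in female and male thymus, carried a barcode that was also on another library's filtered list. Counts without these barcodes are given where they change a result. No doublet caller was run, and the 50% rule removes only barcodes with mixed light chains. At least 0.5% of UMIs from 38 markers of pro- and pre-B cells, T cells, neutrophils, macrophages and erythroid cells were found in 4 kept cells, 3 of them in bone marrow.

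The family shares sequence features that bear on what the counts can show. Reverse transcription in droplet kits starts from poly(A), so mRNAs that end in the stem-loop are caught only in part. A stem-loop of 16 bases was found in an annotated transcript (GENCODE vM21, GRCm38) of 41 of the 67 genes, in 4 forms. The other 26 genes are not shown to lack it, since an annotated transcript may end before the loop. Among them are short ones, such as Hist1h4k (312 bases), Hist1h2bn (381 bases) and Hist1h3i (411 bases). The search pattern was GG, 3 bases C or T, TTT, 1 base T, C or A, 1 base C or A, A, 3 bases A or G, CC. The forms are shown because those of H4 genes differed within the stem from those of the other types. The capitals mark the stem-loop.
Form in 26 genes, none of them for H4 (Hist1h2ae, Hist1h1e): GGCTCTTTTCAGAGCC
Form in 7 genes, all for H4 (Hist1h4m, Hist4h4): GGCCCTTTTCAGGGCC
Form in 6 genes (Hist1h3c, Hist1h2bk): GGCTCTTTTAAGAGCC
Form in 2 genes, both for H4 (Hist1h4j, Hist1h4b): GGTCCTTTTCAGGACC
Hist1h2ap and Hist1h2ao, with a run of 12 A before the loop: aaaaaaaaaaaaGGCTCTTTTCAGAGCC
The annotated transcript ended within 100 bases after the loop in 21 genes and ran further in 20, among them Hist1h1c with 840, Hist4h4 with 2445 and Hist1h1d with 4884 bases after it. Many members are near-identical copies of each other. In the median member 61.7% of all 31-base words of its transcripts also occurred in another gene, and in 15 members over 90% did, among them Hist1h2ao (93.8%, mostly Hist1h2ap), Hist1h2ap (93.4%), Hist1h4m (91.7%, Hist1h4n) and Hist2h2aa1 (100%). How the counts of such pairs divide between the copies is uncertain. Hist2h2aa1 also overlaps the gene Gm20633 on the opposite strand, and Hist1h1e overlaps Hist1h2be on the same strand. The words were counted on either strand and in any annotated gene, so genes that overlap a member add to these shares. Hist2h3b and Hist2h2bb reached 100% through Gm20628, which overlaps both on the opposite strand.

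Promoters are shown because the motifs they hold differed between histone types. In the 250 bases before the start site (RefSeq, GRCm38.p6), 62 members had an entry. The octamer ATTTGCAT, counted on both strands, was in 7 of 18 H2A and 6 of 16 H2B promoters and in none of the 6 H1, 10 H3 and 12 H4 promoters, against 1.6% of 32851 mouse promoters of the same length. The letters CCAAT were in all 18 H2A, all 16 H2B and all 6 H1 promoters, in 8 of 10 H3 promoters and in 3 of 12 H4 promoters, against 33.8% of all promoters. TATAAA was in 29 of the 62, or 46.8%, against 12.4%. The windows below are the bases between the annotated starts of 2 head-to-head H2A and H2B gene pairs and the bases before an H4 gene, on the plus strand. Capitals mark matches to the 3 motifs on either strand, of which no pair shared a base in these windows.
Hist1h2ae and Hist1h2bg, chr13:23571221-23571395: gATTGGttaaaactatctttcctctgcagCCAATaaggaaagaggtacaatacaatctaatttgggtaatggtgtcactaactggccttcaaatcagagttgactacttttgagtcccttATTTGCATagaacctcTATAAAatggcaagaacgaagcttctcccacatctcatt
Hist1h2ap and Hist1h2br, chr13:21833508-21833742: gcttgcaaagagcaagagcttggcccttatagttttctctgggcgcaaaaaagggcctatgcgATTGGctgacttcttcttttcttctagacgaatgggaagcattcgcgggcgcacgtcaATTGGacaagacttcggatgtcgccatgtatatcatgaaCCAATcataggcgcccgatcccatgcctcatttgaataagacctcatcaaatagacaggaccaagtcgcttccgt
Hist1h4m, chr13:21811496-21811745: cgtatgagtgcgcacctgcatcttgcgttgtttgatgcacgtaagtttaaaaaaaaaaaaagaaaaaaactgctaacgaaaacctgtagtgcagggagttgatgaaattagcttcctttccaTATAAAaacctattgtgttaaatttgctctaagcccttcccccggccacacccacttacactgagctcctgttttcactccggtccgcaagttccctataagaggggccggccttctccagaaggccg
The first window held the octamer once, CCAAT at 2 places and TATAAA once. The second held CCAAT at 3 places and neither other motif, and the third held TATAAA once. A match is a description of these letters, not a site of binding.

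Of the 67 genes, 66 had at least 1 UMI in kept cells and 15 had fewer than 100. Hist1h2aa had none, and the other 2 testis-type genes, Hist1h1t and Hist1h2ba, had 1 each. Kept cells held 56571 histone UMIs in all, and the 20 members with the most UMIs held 76.9% of them.

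Histone UMIs were concentrated in a small class of kept cells. Cells were divided by UMIs of 2 S-phase genes, Rrm2 (the small subunit of ribonucleotide reductase) and Tyms (thymidylate synthase), and 2 G2/M genes, Top2a (topoisomerase II) and Ube2c (a ubiquitin-conjugating enzyme of mitosis). The 558 kept cells with UMIs of both kinds held 14.3% of the UMIs outside immunoglobulin genes but 43.7% of the histone UMIs. In these cells the summed histone level was 5125 and 5327 CPM in bone marrow, 3165 and 3919 CPM in the spleen, and 6385 CPM in male thymus. Male thymus had 13 such cells. In cells with UMIs of neither kind it was 570 and 566 CPM in bone marrow, 970 and 927 CPM in the spleen, and 641 CPM in male thymus. The sum with both kinds was higher in each of these 5 libraries, and its lowest value lay above the highest with neither. Female thymus had 4 cells with both kinds, at 1866 CPM with an exact 95% binomial interval of 1285 to 2620 CPM, against 720 CPM, and that sum was left out of the tests because it held fewer than 5 cells. Intervals cover counting error only. The 10 ASC markers summed to less with both kinds, 30410 to 55090 CPM against 54340 to 121800 CPM with neither, and were lower in 6 of 6 libraries. The 8 B cell markers lay at 1539 to 1869 CPM against 1229 to 2010 CPM and were higher in 5 of 6. The 7 neutrophil markers were at 4279 and 43.2 CPM with both kinds in bone marrow, against 99.7 and 104 CPM, and at 0 in the other 4 libraries. The part of these in the histone levels was not tested.

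Cells with UMIs of only 1 kind lay at 478 to 1024 CPM. In male bone marrow, 1 cell with S-phase UMIs alone and 1 with G2/M UMIs alone carried the markers of other cell types described above. With S-phase UMIs alone the summed level was 602 and 630 CPM in bone marrow, 919 and 877 CPM in the spleen, and 992 and 604 CPM in thymus. With G2/M UMIs alone it was 689 and 575 CPM in bone marrow, 1024 and 932 CPM in the spleen, and 942 and 478 CPM in thymus. Whether barcodes with 2 cells add to the class with both kinds was not tested. That class was also deeper, with median depths of 7033 to 10318 UMIs in the 5 libraries against 2429 to 3564 UMIs with neither. After each cell was thinned to 1000 UMIs the mean number of histone UMIs per cell was still 2.91 to 4.85 with both kinds against 0.600 to 1.11 with neither. Cells with at least 10 histone UMIs after thinning numbered 6 and 7 for bone marrow and 13 and 3 for spleen, and all of these had both kinds of UMI. In thymus there were 1 and 4 such cells, of which 0 and 3 had both kinds. At least 5 histone UMIs were in 24 and 29 bone marrow cells, of which 20 and 27 had both kinds and 4 and 2 neither. In spleen 119 and 52 cells had at least 5, of which 79 and 24 had both kinds and 26 and 19 neither. In thymus 3 and 8 cells did, 1 and 4 with both kinds and 2 and 4 with neither.

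**Figure D1:**
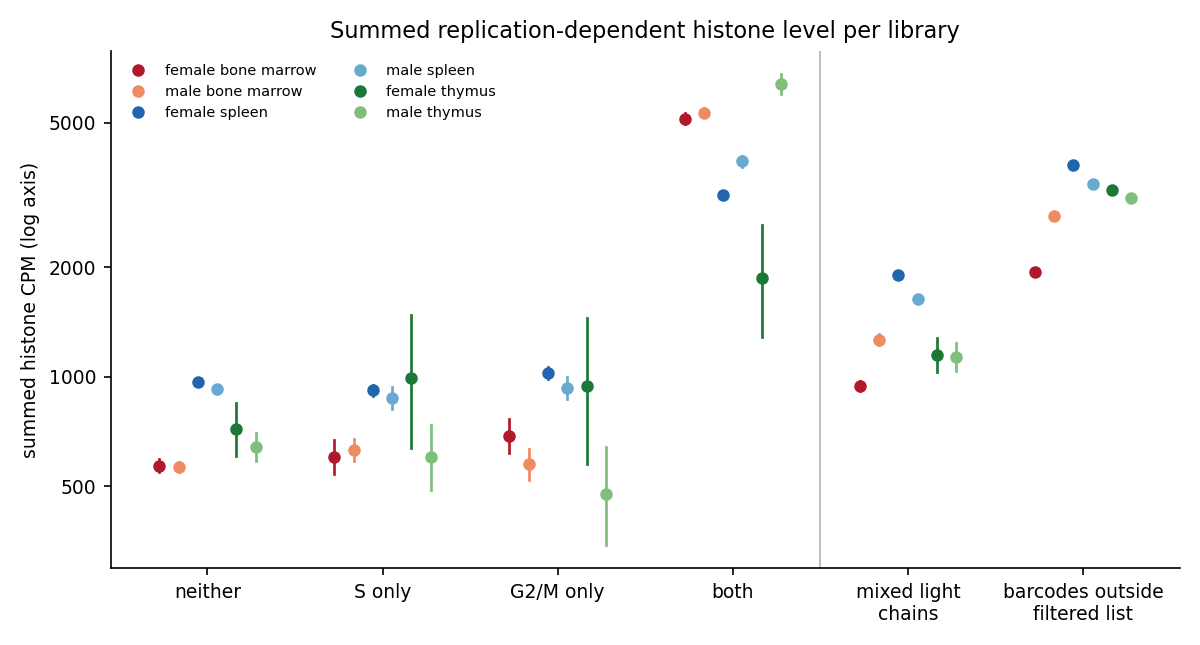
Summed level of the 67 histone genes (CPM of UMIs outside immunoglobulin genes, log axis) in each of the 6 libraries, by class of kept cell, in mixed barcodes and in barcodes outside the filtered list; lines are exact 95% binomial intervals. In the class with both kinds of UMI all libraries but female thymus (1866 CPM, 4 cells) lie between 3165 and 6385 CPM, above all values of the classes with 1 kind or neither.

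In bone marrow and spleen, cells with 6 or more S-phase UMIs and at least 1 G2/M UMI had higher histone levels than cells with 1 S-phase UMI. Without a Top2a or Ube2c UMI, cells with 1 UMI of Rrm2 or Tyms had 618 and 585 CPM in bone marrow and 930 and 844 CPM in spleen, close to the 570 and 566 and the 970 and 927 CPM of cells with none. With at least 1 Top2a or Ube2c UMI, cells with 1 S-phase UMI had 863 and 1355 CPM in bone marrow and 1022 and 1136 CPM in spleen. Those with 3 to 5 S-phase UMIs had 3921 and 2944 CPM and 2513 and 3935 CPM, and those with 6 or more had 6761 and 6633 CPM and 4275 and 5569 CPM. The order was not the same throughout: female bone marrow had 6745 CPM in its 2 cells with 2 S-phase UMIs, and male thymus had 7857 CPM in 2 cells with 3 to 5 and 6928 CPM in 9 cells with 6 or more. Counted the other way, cells with an S-phase UMI and 1 G2/M UMI had 726 and 650 CPM in bone marrow and 798 and 894 CPM in spleen, and those with 6 or more G2/M UMIs had 6426 and 6313 CPM and 4377 and 5188 CPM. Cells with 6 or more G2/M UMIs and no S-phase UMI were few, at 2308 CPM in 5 cells of female bone marrow, 1692 CPM in 8 of female spleen and 2061 CPM in 3 of male spleen. These levels were not tested against each other. Without a G2/M UMI, cells with 3 or more S-phase UMIs numbered at most 11 per library. The 10 and 6 such spleen cells with 3 to 5 had 849 and 968 CPM, and with 6 or more there was 1 cell each in male bone marrow (4806 CPM), female spleen (1998 CPM), male spleen (6729 CPM) and male thymus (1177 CPM). Rrm2 and Tyms UMIs were also present in barcodes outside the filtered lists, Rrm2 at 35.6 to 96.8 CPM there and at 41.6 to 178 CPM in kept cells.

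**Figure D2:**
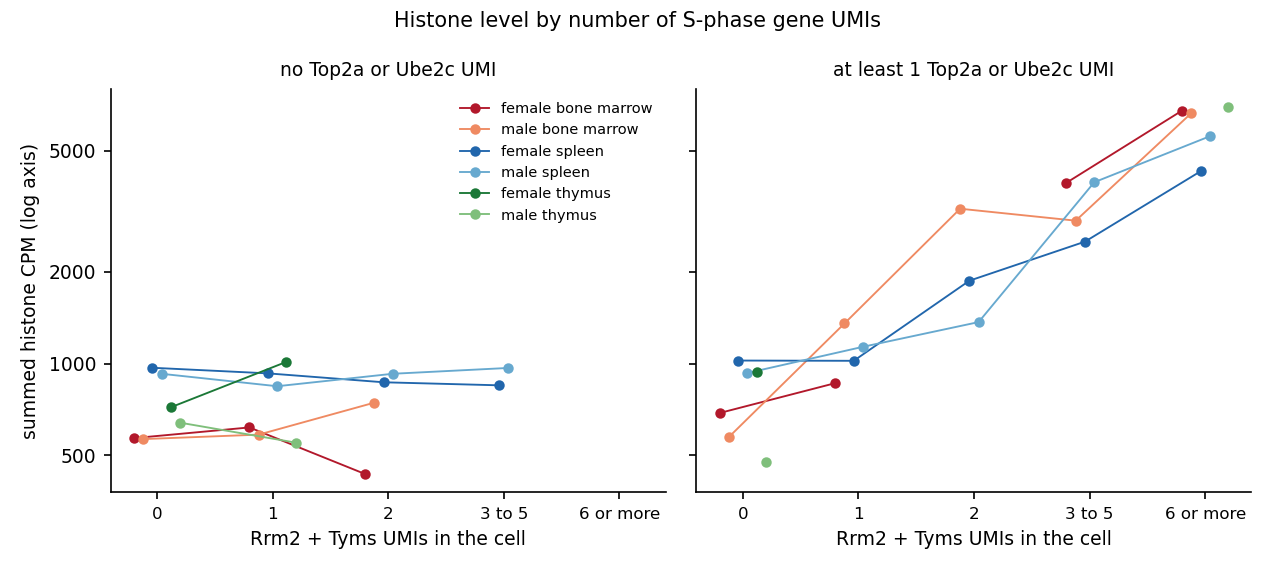
Summed histone level (CPM, log axis) of kept cells by their number of Rrm2 and Tyms UMIs, without (left) and with (right) a Top2a or Ube2c UMI, per library; points of fewer than 5 cells are not drawn. The left panel stays between 435 and 1014 CPM, and the right panel reaches 4275 to 6928 CPM at 6 or more UMIs.

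Gene by gene, 40 of the 43 members tested were higher and 1 was lower in cells with both kinds of UMI than in cells with neither (edgeR, library as a block, adjusted p under 0.05, Rrm2, Tyms, Top2a and Ube2c left out). This contrast was added after the class levels had been seen. Of all 8100 genes tested, 30.4% were higher and 30.1% lower, so calls were frequent among all genes. The median log2 change was 2.52 over the members and -0.04 over all genes. A member could pass the filter on low counts through the class in which it was high. Without that filter 55 of 66 were higher and 1 was lower. Leaving out the 4 cells with markers of other cell types gave 40 higher and 2 lower.

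All 5 linker histone genes tested rose. Hist1h1b, the gene of H1.5, had 23.2 and 16.6 CPM in bone marrow cells with neither kind and 325 and 494 CPM in those with both, 54.8 and 46.2 against 242 and 394 CPM in the spleen, and 17.8 against 465 CPM in male thymus. Its sum was higher with both kinds in each of these 5 libraries, and its log2 change was 3.48 (SE 0.20, edgeR adjusted p = 5.12e-20). Hist1h1e, the gene of H1.4, went from 45.0 and 58.8 to 433 and 429 CPM in bone marrow, from 92.7 and 108 to 198 and 484 CPM in spleen and from 63.6 to 524 CPM in male thymus, a log2 change of 2.39 (SE 0.16). Hist1h1d (3.09) and Hist1h1a (2.58) moved by similar amounts on the log2 scale. Hist1h1c, the gene of H1.2, moved least, with 41.5 and 64.0 against 91.5 and 141 CPM in bone marrow, 49.6 and 74.0 against 81.7 and 131 CPM in the spleen, and 55.9 against 194 CPM in male thymus. Its log2 change was 0.98 (SE 0.12, edgeR adjusted p = 2.00e-09), and its sum was higher with both kinds in each of these libraries.

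H2A genes, which encode 1 of the 4 core histones, held both the largest rises and the only called fall. Hist1h2ap had 8.99 and 5.99 CPM in bone marrow cells with neither kind against 738 and 453 CPM with both, 12.7 and 6.10 against 238 and 236 CPM in the spleen, and 20.3 against 1506 CPM in male thymus. Its log2 change was 5.47 (SE 0.17, edgeR adjusted p = 1.28e-29). Its near-copy Hist1h2ao had 4.75 and 2.76 against 229 and 180 CPM in bone marrow, 3.22 and 2.03 against 67.1 and 70.8 CPM in the spleen, and 3.81 against 582 CPM in male thymus, a log2 change of 5.43 (SE 0.18). The male thymus values with both kinds come from 13 cells. Of the 233 Hist1h2ap UMIs there, 73 were in 1 cell and 109 on barcodes shared with another library. Of the 90 Hist1h2ao UMIs there, 29 were in 1 cell and 39 on shared barcodes. Hist1h2ap and Hist1h2ao are the 2 genes with the run of 12 A before the stem-loop shown above. The sums of each were higher with both kinds in all 5 libraries, but not every cell of that class had a UMI. Hist1h2ap UMIs were in 30 of 55 and 34 of 65 such cells in bone marrow and 151 of 333 and 26 of 88 in spleen. In male thymus they were in 11 of 13. Hist1h2ah (4.44), Hist1h2ae (4.43), Hist1h2ag (4.38) and Hist1h2af (3.46) followed on the log2 scale.

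Hist1h2ae is the member with the most UMIs in kept cells, 6353, of which 4614 were in the class with both kinds. It had 27.5 and 17.8 against 822 and 1055 CPM in bone marrow, 63.1 and 45.1 against 656 and 551 CPM in the spleen, and 22.9 against 562 CPM in male thymus. The H2A member that fell was Hist2h2aa1, at 11.7 and 8.60 against 6.53 and 6.18 CPM in bone marrow, 6.08 and 5.36 against 3.35 and 5.15 CPM in the spleen, and 21.6 against 12.9 CPM in male thymus. It was lower in 5 of 5 libraries, with a log2 change of -0.68 (SE 0.29, edgeR adjusted p = 0.0435) on 29 UMIs in the class with both kinds over these libraries. DESeq2 called 40 members higher and none lower, so it did not call this fall, and without barcodes shared between libraries 35 members were higher and 0 lower of 39 tested. Of the 13 H2A members tested 12 were higher.

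All 8 H2B and all 9 H3 genes tested rose. H2B changes ran from 1.20 (Hist1h2bc) to 3.15 (Hist1h2bk) on the log2 scale. Hist1h2bj had 12.5 and 9.83 against 142 and 145 CPM in bone marrow, 26.3 and 19.6 against 76.7 and 113 CPM in spleen and 8.90 against 129 CPM in male thymus, a log2 change of 2.70 (SE 0.20, edgeR adjusted p = 3.82e-16). Its sum was higher with both kinds in all 5 libraries. H3 changes ran from 1.11 (Hist2h3b) to 4.41 (Hist1h3g). Hist1h3c had 7.99 and 8.14 against 68.6 and 172 CPM in bone marrow and 23.2 and 27.4 against 79.5 and 128 CPM in spleen, while in male thymus it went from no UMI to 58.2 CPM. Its log2 change was 2.70 (SE 0.21). Hist1h3e rose less, by 1.19 (SE 0.14), from 20.2 and 26.0 to 71.9 and 97.6 CPM in bone marrow and from 40.0 and 48.8 to 64.2 and 88.8 CPM in spleen.

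H4 genes had the lowest median log2 change, 0.68 with 6 of 8 higher, against 2.58 for H1, 3.02 for H2A, 2.79 for H2B and 1.93 for H3. The ranges overlapped, at -0.47 to 2.52 for H4 and 0.98 to 3.48 for H1, and differences between types were not tested. The largest H4 change was that of Hist1h4i, at 24.0 and 22.3 against 168 and 194 CPM in bone marrow, 35.9 and 28.1 against 127 and 193 CPM in spleen and 29.2 against 136 CPM in male thymus, a log2 change of 2.52 (SE 0.13, edgeR adjusted p = 7.36e-22). Hist1h4m lay at 38.7 and 34.4 against 68.6 and 77.8 CPM in bone marrow, 58.0 and 47.2 against 49.6 and 43.8 CPM in spleen and 41.9 against 51.7 CPM in male thymus, so it was higher in 3 of 5 libraries and did not pass the test (edgeR adjusted p = 0.0504). Hist4h4 had 18.2 and 13.8 against 16.3 and 9.88 CPM in bone marrow, 19.7 and 14.6 against 12.7 and 10.3 CPM in spleen and 15.3 against 6.46 CPM in male thymus. It was lower in 5 of 5 libraries but did not pass at an adjusted p under 0.05 (edgeR adjusted p = 0.0665). Hist1h4c (0.43), Hist2h4 (0.61) and Hist1h4n (0.75) rose by small amounts on the log2 scale. Of the windows printed above, that of Hist1h4m holds no CCAAT.

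**Figure D3:**
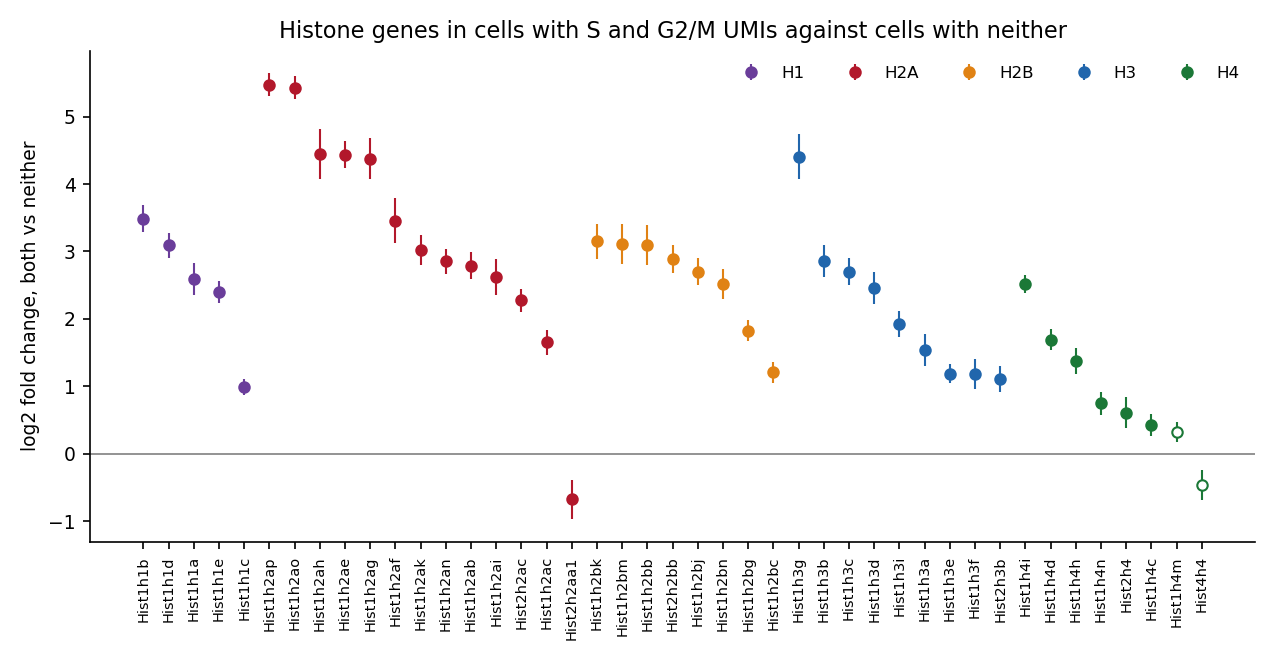
Log2 fold change (edgeR) of the 43 histone genes tested between kept cells with both kinds of cell cycle UMI and cells with neither, grouped by histone type; bars are standard errors and open points did not pass the test. H2A genes reach 5.47, H4 genes lie between -0.47 and 2.52, and Hist2h2aa1 is the only called gene below 0.

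The H2A share of the histone UMIs was higher and the H4 share lower in the class with both kinds in every library. H2A genes made up 46.7 and 43.6% of histone UMIs in bone marrow cells with both kinds against 19.0 and 15.5% in those with neither, 43.9 and 34.2% against 21.2 and 17.5% in the spleen, and 53.3 against 19.1% in male thymus. H4 genes made up 11.7 and 12.4% against 33.5 and 29.3% in bone marrow, 13.3 and 13.3% against 28.0 and 27.0% in the spleen, and 9.51 against 28.6% in male thymus. The H1 share, 19.9 to 29.7% in both classes of these libraries, was lower with both kinds in 3 libraries and higher in 2. Barcodes outside the filtered lists, which hold RNA not assigned to cells, had 25.1 to 28.9% H2A and 13.6 to 17.3% H4.

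**Figure D4:**
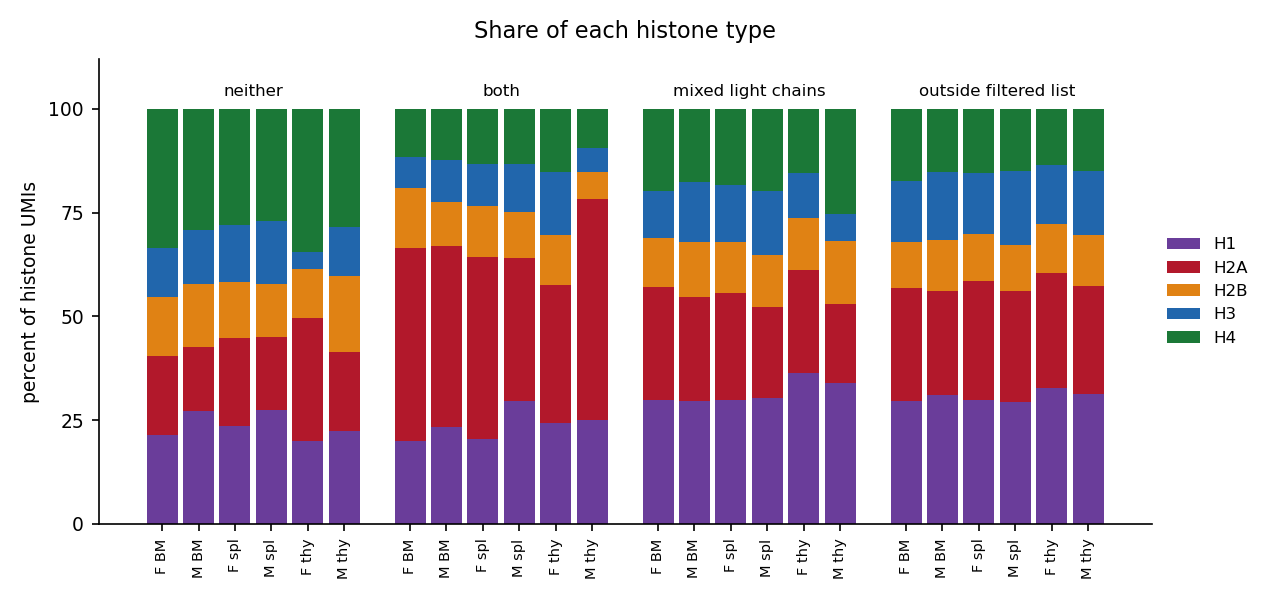
Percent of histone UMIs from H1, H2A, H2B, H3 and H4 genes in each library (F female, M male, BM bone marrow, spl spleen, thy thymus) for 2 classes of kept cell, mixed barcodes and barcodes outside the filtered list. H2A takes 33.3 to 53.3% with both kinds of UMI and 15.5 to 29.7% with neither, and H4 takes 9.51 to 15.2% and 27.0 to 34.5%.

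Features of the transcripts can be set beside these changes as a description. The 6 tested genes with a run of at least 8 A in an annotated transcript had log2 changes of 1.20 to 5.47 with a median of 3.76, against a median of 2.51 over the other 37. The 15 tested genes whose annotated transcript ends within 100 bases after the stem-loop had a median of 2.79, and the 12 with a longer end had 1.67. The 16 with no match in the annotated transcript, which may end before the loop, all rose and had 2.60. The 10 tested genes with an octamer in the promoter all rose, by 1.65 to 4.44, while 26 of the 29 without it rose. These are 10 of 13 members with the octamer and 29 of 49 without it, and 1 octamer can count for both genes of a head-to-head pair. A member could enter these groups through the class in which it was high, so the counts are a description only. The 5 tested genes with a promoter entry that lacks CCAAT had a median of 0.75, against 2.74 over the 34 with it, and of those 5 genes 3 rose. All 5 are H4 genes, and the octamer was found only in H2A and H2B promoters. Motif and histone type therefore go together in these groups and cannot be told apart here.

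With S-phase UMIs alone, 1 of 43 members passed the test against cells with neither, beside 10.0% of all 8100 genes higher and 5.95% lower. It was Hist1h4m, higher by 0.40 on the log2 scale (SE 0.14, edgeR adjusted p = 0.0466), and DESeq2 called none. It was not called in any of the 6 fits that left out a library. At an unadjusted p under 0.05, 3 members passed. With G2/M UMIs alone, 0 of 43 members passed against neither (edgeR, 0.667% of all genes higher and 0.037% lower), with 2 at an unadjusted p under 0.05 and 0 in DESeq2. Between the S-phase-only and G2/M-only classes 0 of 43 passed (edgeR, 2.89% of all genes higher with S-phase UMIs and 0.827% lower), with 1 at an unadjusted p under 0.05 and 0 in DESeq2. The median log2 changes of the members were 0.19, 0.18 and -0.04 in these 3 contrasts. Of all genes, 29.6, 6.12 and 18.7% had an unadjusted p under 0.05 in them.

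Lists of genes that work with histones were read in the same contrast, in which 30.4% of all genes were higher and 30.1% lower. Of 14 genes of histone mRNA processing, 12 were tested, 9 rose and 1 fell. Slbp, which binds the stem-loop, rose by 2.05 on the log2 scale (SE 0.10, edgeR adjusted p = 2.71e-22), and Eri1, an exonuclease that trims histone mRNA ends, rose by 1.45. Casp8ap2, part of the histone gene body in the nucleus, rose by 0.94, Lsm10, a protein of the U7 particle that cuts histone mRNA, fell by 0.70, and Npat, the coactivator of histone genes, stood at -0.09 (edgeR adjusted p = 0.741). Of 11 chaperone and deposition genes 10 were tested, 9 rose and 1 fell. The largest rises were in Chaf1a and Chaf1b, subunits of the assembly factor CAF-1, by 4.93 and 3.87, in Asf1b, an H3 and H4 chaperone, by 4.61, and in Nasp by 2.55. Asf1a, the paralog of Asf1b, rose by 0.73.

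Replacement histones, most of whose mRNAs carry poly(A) tails, rose in 8 of 9 tested cases. H2afx (H2A.X) rose by 4.42, Cenpa, the centromeric H3, by 3.84, and H2afz (H2A.Z) by 2.79 on the log2 scale, while the H3.3 genes H3f3a and H3f3b rose by 0.77 and 0.52. All 18 S-phase and all 14 G2/M genes of the fixed lists rose, with median log2 changes of 3.21 and 5.57. The class was chosen by UMIs of other genes of these phases, so these rises are no separate test of it. In the class with S-phase UMIs alone 7 of the 18 S-phase genes, 5 of the 14 G2/M genes, 4 of 9 replacement histones and 1 of 10 chaperones were higher than with neither, beside 10.0% of all genes. Differences between the lists were not tested.

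Between tissues, few members passed in the sums over all kept cells. From spleen to bone marrow 0 of 58 tested members differed (edgeR, 0.0712% of 11239 genes higher in spleen and 0.365% lower), with 16 at an unadjusted p under 0.05, of which 14 were higher in spleen, and 0 in DESeq2. Of all genes 4.65% had an unadjusted p under 0.05 there, in either direction. Thymus against bone marrow gave 2 members higher and 0 lower (0.525 and 0.24% of all genes), and 0 in DESeq2 or without the sex term. Thymus against spleen gave 2 higher and 3 lower (0.498 and 0.133%), and 0 in all without the sex term or at a leading share of 80%, and 1 after thinning. The summed level over all kept cells was 1074 and 990 CPM in bone marrow, 1399 and 1215 CPM in the spleen, and 839 and 1371 CPM in thymus. Female thymus was lowest of the 6, and male thymus lay between the 2 spleen libraries.

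The members higher in thymus rested on few cells. Hist1h2af, an H2A gene, had 2.46 and 4.31 CPM in bone marrow, 6.06 and 4.67 CPM in the spleen, and 3.78 and 34.5 CPM in thymus. Its 41 UMIs in male thymus were in 7 cells, 20 of them in 1 cell, and its female thymus value of 1 UMI lay within the range of the other tissues. Without male thymus its log2 change against bone marrow was -0.36, in place of 2.65 (SE 0.50, edgeR adjusted p = 0.00296). Hist2h2aa1 had 10.7 and 7.75 CPM in bone marrow, 5.78 and 5.68 CPM in the spleen and 52.9 and 21.0 CPM in thymus, so the thymus libraries were above the other 4. Its log2 change was 1.52 against bone marrow (edgeR adjusted p = 0.0471) and 2.19 against spleen (edgeR adjusted p = 0.00179). In female thymus 9 of its 14 UMIs were in 1 cell and 10 were on barcodes shared with another library, and in male thymus 15 of its 25 UMIs were on such barcodes. Without shared barcodes its change was 0.59 against bone marrow and 1.18 against spleen, and neither passed the test (edgeR adjusted p = 0.651 and 0.257). Hist1h2ao, called higher in thymus than in spleen, had 22.7 and 79.9 CPM in thymus against 15.6 and 8.96 CPM, with 29 of 95 UMIs of male thymus in 1 cell. Of its UMIs, 5 of 6 in female and 41 of 95 in male thymus were on shared barcodes, and its log2 change of 2.16 was 2.01 without them (edgeR adjusted p = 0.0197) and 0.08 without male thymus.

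The members lower in thymus than in spleen were Hist1h3c, Hist1h4d and Hist1h3e. Hist1h3e had 45.2 and 54.5 CPM in spleen against 11.3 and 23.6 CPM in thymus and 26.6 and 32.4 CPM in bone marrow, a log2 change of -1.58 from spleen to thymus (SE 0.36, edgeR adjusted p = 0.0269). Hist1h4d had 44.3 and 37.6 CPM in spleen, 28.9 and 23.5 CPM in bone marrow and 7.56 and 13.5 CPM in thymus (log2 change -1.91, edgeR adjusted p = 0.0117). Both genes were ordered spleen, bone marrow, thymus without overlap. The thymus values rest on 3 and 28 UMIs for Hist1h3e and on 2 and 16 UMIs for Hist1h4d. No member was lower in thymus without female or without male bone marrow, or with RNA from outside the cells subtracted, and DESeq2 called 1 higher and 0 lower.

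Among cells with no UMI of the 4 cell cycle genes, 12 of 47 members tested passed between spleen and bone marrow (1 in DESeq2) and all 12 were higher in spleen, beside 0.28% of 10724 genes higher and 0.438% lower, and 43 of the 47 changes were positive. The median log2 change was 0.80 over the members and 0.03 over all genes. Hist1h2ab had 34.1 and 28.9 CPM in spleen against 9.24 and 9.52 CPM in bone marrow, a log2 change of 1.75 (SE 0.26, edgeR adjusted p = 6.29e-05). Hist1h3c had 23.2 and 27.4 against 7.99 and 8.14 CPM (1.66), Hist1h1b had 54.8 and 46.2 against 23.2 and 16.6 CPM (1.38), and Hist1h2ae had 63.1 and 45.1 against 27.5 and 17.8 CPM (1.29). The spleen libraries were above the bone marrow libraries for each of these genes. The others that passed were Hist1h2bb (1.96), Hist1h1a (1.67), Hist1h3b (1.61), Hist1h2an (1.56), Hist1h3f (1.31), Hist1h2bj (1.06), Hist1h4d (1.03) and Hist1h3e (0.96), with genes of all 5 histone types among the 12.

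RNA from outside the cells moved with this difference. Its share of kept cells' UMIs, estimated from light-chain V genes other than the leading one, was 10.9 and 8.70% in the bone marrow cells and 18.2 and 15.4% in the spleen cells of this class. The histone level in barcodes outside the filtered lists was 1941 and 2770 CPM in bone marrow and 3819 and 3396 CPM in spleen, above that of the kept cells in each library. The histone UMIs of the class were 1.96 and 2.01 times the number estimated from that RNA in bone marrow and 1.23 and 1.61 times in spleen. With the estimate subtracted, 6 of the 12 members had no UMI left in either spleen library and 9 had none in female spleen, among them Hist1h2ae, with 706 UMIs before. Counts below 0 were set to 0, so none left means that the estimate about matched or exceeded the count. The estimate can be too high: mixed barcodes of female thymus held 0.9 times the histone UMIs it gave. How many of the UMIs in spleen came from outside the cells was not tested. Bone marrow lost UMIs as well: Hist1h1a, Hist1h1b, Hist1h2ab, Hist1h2an, Hist1h2bb, Hist1h3b and Hist1h3c had none left in either of its libraries. In that fit 0 of 32 members tested passed, and it bears on few of the 12. Hist1h2bj kept 93 and 28 UMIs in spleen and 27 and 21 in bone marrow, with a log2 change of 0.61. On the counts as deposited, 0 members passed without female or without male bone marrow, and 1 in DESeq2. Of the 14 genes of the G2/M list 12 were tested in the same contrast, with a median of 1.16, and 0 passed (edgeR). In the class with both kinds of UMI the histone UMIs were 43.6 and 46.2 times the estimate in bone marrow, 7.76 and 11.4 times in spleen and 136 times in male thymus.

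**Figure D5:**
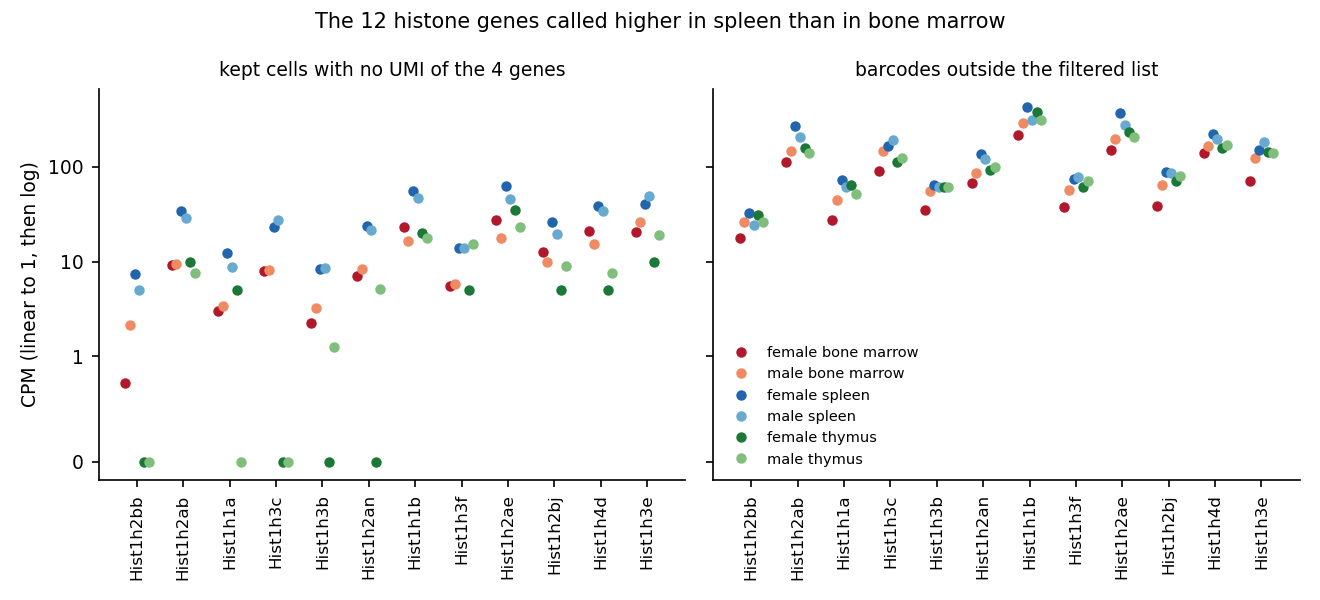
Level (CPM, linear to 1 and log above) of the 12 histone genes called higher in spleen than in bone marrow, per library, in kept cells with no UMI of the 4 cell cycle genes (left) and in barcodes outside the filtered list (right). In the left panel the 2 spleen points lie above the 2 bone marrow points for each gene, and the levels outside the filtered list are higher than in the cells for all 12.

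In thymic cells of the same class, 1 of 47 members was higher and 1 lower than in bone marrow (0.606 and 0.205% of all genes), and 2 were higher and 6 lower than in spleen (0.625 and 0.252%). DESeq2 called 1 higher and 0 lower than in bone marrow and 1 higher and 2 lower than in spleen. Without the sex term 0 and 2 members passed, and at a leading share of 80% 0 and 1. Hist1h2ap had 64.5 and 20.3 CPM in thymus against 8.99 and 5.99 CPM in bone marrow (log2 change 1.99, SE 0.42, edgeR adjusted p = 0.00599) and 12.7 and 6.10 CPM in spleen. Its thymus values are 13 UMIs in 8 cells and 16 UMIs in 14 cells. Hist1h3c had no UMI in either thymus library in 988315 UMIs. Set against a floor of 3 counts over both thymus libraries it was at least 2.66-fold lower than in bone marrow and at least 8.1-fold lower than in spleen. Against spleen, Hist1h4d (-2.51), Hist1h2an (-2.71), Hist1h2ab (-2.13), Hist1h3e (-1.70) and Hist1h1b (-1.62) were also lower on the log2 scale, and Hist2h2aa1 (2.35) was higher. Hist1h2an rests on 0 and 4 thymus UMIs and Hist1h4d on 1 and 6. Of Hist2h2aa1's 13 UMIs in female thymus 9 were in 1 cell and 10 on shared barcodes, as were 10 of its 17 in male thymus, and without shared barcodes its change was 1.14 (edgeR adjusted p = 0.340). With the RNA from outside the cells subtracted, 3 members were higher and 0 lower than in spleen, of 32 tested, and Hist1h1b, Hist1h2ab and Hist1h3c had no UMI left in spleen. Hist1h3c, with 32 and 53 UMIs in bone marrow before, had none left there either. Both of its bounds above thus rest on UMIs that the subtraction removes. That RNA made up an estimated 3.67 and 7.38% of UMIs in the thymic cells.

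Cells with at least 1 Rrm2 or Tyms UMI were too few in female thymus for a test between tissues, 13 against 39 to 811 in the other libraries. The summed histone level of these cells was 2952 and 2491 CPM in bone marrow, 2185 and 2288 CPM in the spleen, and 1361 and 3470 CPM in thymus. The bone marrow libraries lay above the spleen libraries, and the thymus libraries lay on either side of both. The share of kept cells with both kinds of UMI was 4.44 and 3.90% in bone marrow, 9.34 and 4.76% in the spleen, and 3.74 and 4.51% in thymus, or 1.45 and 1.86%, 2.41 and 1.57%, and 0 and 2.08% after thinning to 1000 UMIs. The thinned 0 of 107 cells in female thymus, with an exact 95% upper bound of 3.39%, concerns detection at 1000 UMIs, since 4 of these cells had both kinds before thinning.

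At equal depth the share of kept cells with a histone UMI was higher in spleen than elsewhere. It was 44.8 and 43.9% in bone marrow, 65.2 and 60.9% in the spleen, and 46.7 and 47.2% in thymus after thinning, and 80.7 and 83.1%, 95.6 and 91.5%, and 70.1 and 76.0% before. These shares include the RNA from outside the cells described above.

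Between the sexes 0 of 58 members differed (edgeR, 0.16% of 11239 genes higher in males and 0.267% lower), 0 in DESeq2 and 11 at an unadjusted p under 0.05, all 11 lower in males. At that unadjusted threshold 10.0% of all genes passed in either direction. Of the 58 changes 9 were positive, and the median was -0.38 against 0.02 over all genes. The S-phase and G2/M lists had medians of -0.32 and -0.39 in the same contrast. Cells with both kinds of UMI made up 9.34% of kept cells in female and 4.76% in male spleen. Their share was 4.44 and 3.90% in bone marrow, and in thymus it was higher in the male library, at 3.74 and 4.51%. The part of these differences in the members' shift was not tested. Without either thymus library 5 members passed, all lower in males. The model treats sex and tissue as additive, and a sex effect that differs between tissues could not be tested with 1 library per combination.

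In barcodes with mixed light chains the summed histone levels were 944 and 1265 CPM in bone marrow, 1910 and 1637 CPM in the spleen, and 1152 and 1133 CPM in thymus. Against kept cells of the same library, 13 of 54 members were higher and 11 lower (edgeR, library as a block), beside 29.3% of 10542 genes higher and 29.0% lower. Whether members were called less often than other genes was not tested. Each cell thinned to 1000 UMIs gave 23 higher and 0 lower, and DESeq2 gave 11 and 8. Of 5 H1 genes 3 were higher, among them Hist1h1e by 0.55 and Hist1h1b by 0.48, and none lower. The largest falls were the 2 genes that rose most with both kinds of cell cycle UMI: Hist1h2ap by -1.10 (SE 0.17, edgeR adjusted p = 6.64e-06) and Hist1h2ao by -1.09 (SE 0.16). Hist1h2ap had 41.4 and 43.5 CPM in mixed barcodes against 89.4 and 45.2 CPM in kept cells of bone marrow, 27.2 and 15.3 against 56.5 and 28.8 CPM in the spleen, and 77.2 and 35.5 against 75.6 and 215 CPM in thymus, so it was lower in 5 of 6 libraries. With thinned cells its change was 0.14. The largest rises were Hist3h2a (0.77), Hist1h4d (0.68) and Hist1h2be (0.64).

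Markers of other cell types moved with the mixed class. The 7 neutrophil markers summed to 18990 and 29990 CPM in mixed bone marrow barcodes against 549 and 1363 CPM in kept cells, and the 8 erythroid markers to 678 and 34.5 CPM in bone marrow and 465 and 2190 CPM in spleen against 6.58 to 25.1 CPM in kept cells. RNA from outside the cells was estimated at 25.7 to 51.2% of the UMIs of mixed barcodes. The part of either in these histone changes was not tested. Of the replacement histones, 7 of 9 were lower and 0 higher in mixed barcodes, beside 29.0% of all genes lower and 29.3% higher. H2afj changed by -1.01 and H3f3a by -0.93. The difference from the H1 genes was not tested.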

How the data were processed

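Expression was measured in 6 libraries, 1 per sex and tissue, and 6 receptor libraries were not used here. The deposited matrices hold UMI counts per gene and barcode, made by the authors with Cell Ranger 6.0.2 for the filtered matrices per the file headers. Builds mm10 and GRCm38 are named per the submitters' processing notes. Depth was summed outside the 395 genes that start with Igh, Igk or Igl. Counts were summed per library, or per library and class, and tested with edgeR 4.0.16 (filterByExpr, TMM, quasi-likelihood, Benjamini-Hochberg over all genes tested, threshold 0.05), with sex and tissue as additive terms or with library as a block. DESeq2 1.42.0 was an alternative. Sums under 5 cells were left out. In the tissue and sex fits libraries were treated as independent, each from pooled mice. With 1 library per sex and tissue, p-values there measure how far tissue differences varied between the female and male libraries. They do not measure the spread between repeated libraries or between mice. With library as a block, p-values measure how the difference between classes varied across sums from the same 6 libraries. Those fits had 14 residual degrees of freedom for the cell classes and 5 for mixed against kept. The tissue and sex fits had 2 residual degrees of freedom. RNA from outside cells was estimated from light-chain V UMIs other than the leading gene's and the profile of barcodes outside the filtered lists. Where it was subtracted, counts below 0 were set to 0. Named members were the 20 with the most UMIs and the called members of each contrast, up to 10 by size, and others are named only where counted beside their type. Members, lists and rules were chosen with earlier results of these data known. Scripts were tested on simulated data.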

Additional observations from a re-analysis of the deposited data

How the results depend on the processing

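Tissue and sex fits rested on 6 libraries, and the thymus libraries were the shallowest, so small changes of low members were not detectable there. No paired analysis was possible because the labels carry no replicate numbers, beyond the sex term, which sets libraries of 1 sex side by side and whose removal is given below. Tests between tissues of cells with S-phase UMIs, and their alternatives, were not run, as female thymus had 13 such cells. The 80% light-chain rule and the subtraction of RNA from outside cells do not apply to mixed against kept barcodes. The cause of the changes below was not tested, except that thinning left only 4 members in the class fits.

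Of the counts of called members, 106 alternatives stayed within 1.5 times the reported count and 74 did not. For all kept cells, thymus against bone marrow (2 as reported) gave 0 with DESeq2, 0 without the sex term, 1 with an 80% leading share, 0 after thinning, 1 with outside RNA subtracted, 1 without shared barcodes, 1 without cells with markers of other types and 0 to 6 with each library left out. Thymus against spleen (5) gave 1 with DESeq2, 9 without the filter, 0 without the sex term, 0 at 80%, 1 after thinning, 3 with outside RNA subtracted and 2 to 12 with a library left out. Spleen against bone marrow (0) gave 2 without the filter, 1 after thinning and 0 to 8 with a library left out. Male against female (0) gave 2 without the filter, 2 at 2000 UMIs and 0 to 5 with a library left out. In cells with neither kind of UMI, thymus against bone marrow (2) gave 1 with DESeq2, 0 without the sex term, 1 at 2000 UMIs, 0 at 80%, 1 after thinning, 1 with outside RNA subtracted and 0 to 3 with a library left out. Thymus against spleen (8) gave 3 with DESeq2, 2 without the sex term, 1 at 80%, 3 after thinning, 3 with outside RNA subtracted and 4 to 17 with a library left out. Spleen against bone marrow (12) gave 1 with DESeq2, 2 without the sex term, 2 at 80%, 3 after thinning, 0 with outside RNA subtracted, 6 with at least 2 UMIs for a class and 0 to 16 with a library left out. S-phase only against neither (1) gave 0 with DESeq2, 0 at 2000 UMIs, 0 at 80%, 2 after thinning, 2 with outside RNA subtracted and 0 in each fit without a library. G2/M only against neither (0) gave 4 after thinning, 3 with outside RNA subtracted and 2 with at least 2 UMIs for a class. S-phase only against G2/M only (0) gave 1 with outside RNA subtracted. Both kinds against neither (41) gave 4 of 4 after thinning and 38 to 41 with a library left out. Mixed against kept (24) gave 14 at 2000 UMIs and 18 to 25 with a library left out.

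For the called members, up to 10 per contrast by size, alternatives were counted only where the member was tested. Of these, 190 kept only the direction, 4 reversed, and the others kept direction and call. Hist1h2af between thymus and bone marrow was -0.36 without male thymus and up to 3.14 with another library left out, Hist1h2ae between spleen and bone marrow was -6.56 with outside RNA subtracted, which left it no UMI in spleen and is no measured fold, Hist1h4m with S-phase UMIs only was -0.01 with at least 2 UMIs for a class, and Hist1h2ap in mixed barcodes was 0.14 after thinning. All 131 alternatives of the 10 members with the largest change between both kinds and neither kept direction and call, while the fall of Hist2h2aa1 was not called by DESeq2 or without shared barcodes.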
